A study of Mus musculus with 12 samples.

Results

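Open chromatin was described around 6 genes for transcription factors of effector T cells, Gata3, Prdm1, Maf, Irf4, Batf and Tbx21. The data were ATAC-seq peak lists, in which peaks mark DNA accessible to the Tn5 transposase, of 12 libraries of 100000 CD4+ T cells each from mouse spleen. Every animal carried a Foxp3 reporter with green fluorescent protein, and flow sorting gave GFP+ regulatory T cells (Treg) and conventional T cells without GFP (Tconv). The animals were KO, lacking the Lrrc32 +70 kb enhancer, or wild type (WT) for it, and each of the groups KO Treg, WT Treg, KO Tconv and WT Tconv had 3 libraries. Lrrc32 encodes GARP, a Treg surface protein that binds latent TGF-beta. The labels name no stimulation of the cells and do not say whether each library came from its own animal, so a p-value here reflects variation among libraries that could be technical. The labels give neither the ages of the animals nor their activation state. Whether the cells were resting, and whether Foxp3 itself was open in the GFP+ cells, was not checked here.

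The members were all regions with a peak in 1 fixed window per gene on NCBIM37, the build named in the submitters' processing notes. A region is the union of peaks, from any of the 12 lists, that overlapped or touched, and a library was called open at a region when it had a peak there. The windows held 65 of the 40457 regions of the whole series, made of 429 of 275880 peaks. Of these 65, 49 were open in 2 or more libraries and could be called, and 16 had a peak in 1 library alone. KO Treg replicates 1 and 3 accounted for 5 and 4 of those 16. KO Treg replicate 2 stood apart before any comparison, with 5262 peaks against 21269 to 27605 in the other 11 lists, and it was open at 6 of the 65 regions against 31 to 46 in the others. Results that rest on this library are given with and without it. In bulk lists, fewer open cells and less open chromatin per cell cannot be told apart.

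GATA3 directs the Th2 programme and is also made by Treg. T-bet, the product of Tbx21, directs the Th1 programme. Blimp-1, the product of Prdm1, represses transcription in effector T cells and plasma cells, and c-Maf supports Il10 expression in several T cell subsets. IRF4 is induced by T cell receptor signals and binds DNA together with BATF, an AP-1 factor that lacks a transactivation domain of its own. All 6 are raised or engaged as T cells become effectors, and their genes carry distal regulatory elements as well as promoters.

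The genes lie beside others, so a region of a window need not belong to its named gene. In the GRCm38.p6 gene table, used for names and order alone, the protein-coding neighbours are Celf2 and Taf3 for Gata3, Atg5 and Prep for Prdm1, Wwox and Dynlrb2 for Maf, Dusp22 and Exoc2 for Irf4, Jdp2 and Flvcr2 for Batf, and Osbpl7 and Tbkbp1 for Tbx21. No annotation of NCBIM37 was used here, and regions are therefore given by position without exon, intron or promoter assignment.

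Promoter sequences in RefSeq (GRCm38.p6) were matched for 5 of the 6 genes, and 3 are shown: Gata3, whose window held the called regions, Tbx21, whose window held the fewest regions, and Batf, the lowest in G and C. Each is the 250 bases before the annotated start, 5′ to 3′, with GC boxes (GGGCGG on either strand) in capitals. Their place relative to the peaks was not determined, since the builds differ.
Gata3, chr2:9878601-9878850 (minus strand): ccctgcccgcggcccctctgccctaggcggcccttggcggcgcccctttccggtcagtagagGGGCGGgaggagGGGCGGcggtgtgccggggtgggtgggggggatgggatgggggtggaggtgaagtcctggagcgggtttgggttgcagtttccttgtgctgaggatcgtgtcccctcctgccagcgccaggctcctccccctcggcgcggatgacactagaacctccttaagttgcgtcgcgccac
Tbx21, chr11:97115332-97115581 (minus strand): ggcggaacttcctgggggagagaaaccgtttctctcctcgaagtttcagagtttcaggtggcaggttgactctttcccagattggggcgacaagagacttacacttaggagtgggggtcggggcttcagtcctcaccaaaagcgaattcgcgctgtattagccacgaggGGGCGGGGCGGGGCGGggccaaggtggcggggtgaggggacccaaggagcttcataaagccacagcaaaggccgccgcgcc
Batf, chr12:85686470-85686719 (plus strand): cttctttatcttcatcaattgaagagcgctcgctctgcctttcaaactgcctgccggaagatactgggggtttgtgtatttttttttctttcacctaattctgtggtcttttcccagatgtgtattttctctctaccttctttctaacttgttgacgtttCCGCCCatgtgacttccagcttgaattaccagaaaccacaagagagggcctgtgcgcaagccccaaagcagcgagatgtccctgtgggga
The Gata3 stretch held 2 GC boxes on the forward strand and the Tbx21 stretch 3, which overlap one another by 1 base each. The Batf stretch held 1 on the reverse strand. A GC box was present in 32.7% of the 32851 promoter stretches of this length in the table. G and C made up 70.0% of the Gata3 stretch, 60.8% of the Tbx21 stretch and 46.4% of the Batf stretch, against a median of 52.4% over all stretches. The Irf4 stretch held a TATA box (TATAAA), found in 12.4% of all stretches, besides 1 GC box on each strand. The Prdm1 stretch held 1 match to the AP-1 letters TGANTCA (6.75% of all stretches), which read the same on both strands. The Batf stretch held 1 match on each strand to the RUNX letters TGTGGT (14% of all stretches) and 1 on the reverse strand to the GATA letters AGATAA (9.99%). None of these further motifs overlapped another motif searched, and a match is a description of letters only.

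Regions open throughout both cell types made up about the same share of the windows as of the whole series. A peak in all 11 libraries other than KO Treg replicate 2 was found at 22 of the 49 regions (44.9%), against 44.9% of the 32787 regions of the series with a peak in at least 2 libraries. Each window held at least 1 such region, with 8 in the Gata3 window, 5 each in the Prdm1 and Irf4 windows, 2 in the Batf window and 1 each in the Maf and Tbx21 windows. KO Treg replicate 2 was open at 6 of the 22. Those 6 had median percentiles of 73.2 to 92.9 in the other lists, and the 16 it lacked had 25.3 to 82.8. The percentile ranks a peak by the authors' −log10 p among all peaks of its own list, and since the lists differ in length it describes a list and shows no change between lists.

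The windows differed in the density of regions with a peak in any library. The Irf4 window had 7.14 regions per 100 kb, the Batf window 6.67, the Gata3 window 6.18, the Prdm1 window 3.64, the Tbx21 window 2.5 and the Maf window 1.67. These densities include regions with a peak in 1 library alone. Such regions were 3 of 10 for Irf4, 2 of 6 for Batf, 8 of 34 for Gata3, 1 of 8 for Prdm1, 0 of 2 for Tbx21 and 2 of 5 for Maf. The windows were drawn with different lengths, from 80 kb for Tbx21 to 550 kb for Gata3, and the densities depend on where they end. No density of the whole series is given beside them.

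**Figure D1:**
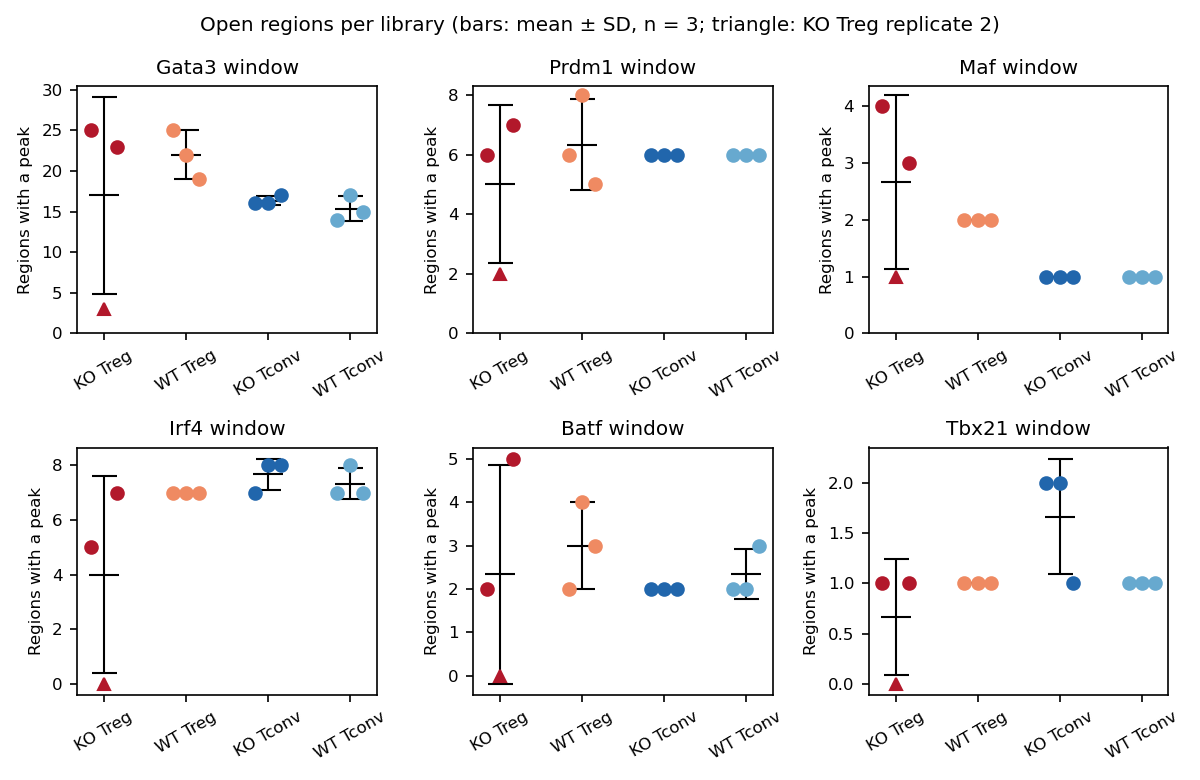
Number of regions with a peak in each library, by group, in each of the 6 windows (points, libraries; horizontal bars, mean ± SD over 3 libraries; triangle, KO Treg replicate 2). In the Gata3 window the other 5 Treg libraries sit between 19 and 25, above the Tconv libraries at 14 to 17.

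The Gata3 window, on chromosome 2 from 9500000 to 10050000, was open at more sites in Treg than in Tconv once the short KO Treg list was set aside. The KO Treg libraries were open at 25, 3 and 23 of its 34 regions, and the WT Treg libraries at 25, 22 and 19. The KO Tconv libraries were open at 16, 16 and 17, and the WT Tconv libraries at 14, 17 and 15. Every Treg library except KO Treg replicate 2 therefore had more open regions than every Tconv library. This arrangement was also met, without that library, by 9.67% of 3256 stretches of 550 kb tiled along all chromosomes. Only stretches with a region open in at least 2 of the 11 libraries entered. They were not matched to the window in their number of regions, so the share is not a like-for-like background. Regions open in 1 library alone were not counted in the stretches, though they were in the window. With all 12 libraries the Treg minus Tconv difference of 3.67 regions was within the spread (exact permutation p = 0.38, two-sided, cell type permuted within genotype). Without KO Treg replicate 2 it was 6.97 regions (exact permutation p = 0.005, the smallest this test allows). With the same 21269 top peaks taken from each of the 11 lists it was 4.53 regions (exact permutation p = 0.005). With 5262 top peaks from each of the 12 lists it was 1.5 regions and did not pass (exact permutation p = 0.165). Per 10000 peaks of the list it was 1.92 with 12 libraries (exact permutation p = 0.025). Within WT alone, Treg averaged 22.0 ± 3.0 and Tconv 15.3 ± 1.53 open regions (SD, n = 3 each; exact permutation p = 0.1, the smallest that 3 against 3 allows).

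Of the 26 callable regions of this window, 2 were Treg-enriched, meaning that at least 5 more Treg than Tconv libraries had a peak. Both had a peak in 5 of 6 Treg libraries, KO Treg replicate 2 being the exception, and in 0 of 6 Tconv libraries (Fisher's exact p = 0.0152, adjusted p = 0.0389 over the 5679 regions present in 5 to 7 libraries, and 0.224 over all 32787). They were the 2 Treg-enriched regions among the 49, or 4.08%, against 3.20% of all regions. No region of any window was Tconv-enriched, against 3.55% of all regions.

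The first Treg-enriched region, from 9498827 to 9500094, crosses the edge of the window, with 95 of its 1268 bp inside. Its percentiles were 31.6 and 36.7 in KO Treg replicates 1 and 3, and 61.5, 21.0 and 48.5 in the WT Treg libraries. The other, from 9634352 to 9635772, had percentiles of 8.32 and 21.6 in KO Treg replicates 1 and 3, and 14.2, 43.7 and 34.2 in the WT Treg libraries. These are peaks of the middle or lower part of each list, and their fold over background, as given by the authors' peak caller, was 4.90 to 7.34 and 4.46 to 6.08.

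A region between them, from 9580317 to 9581132, ranked higher. Its percentiles were 71.1 and 54.7 in KO Treg replicates 1 and 3, and 54.4, 69.4 and 59.8 in the WT Treg libraries. Among Tconv it had a peak in KO Tconv replicate 3 alone, at a percentile of 4.83. With 12 libraries it was not Treg-enriched (5 against 1, Fisher's exact adjusted p = 0.166). Without KO Treg replicate 2 and with a difference of 4 libraries it was (5 of 5 against 1 of 6, Fisher's exact adjusted p = 0.0369 over 7795 regions). This Fisher's test without that library was chosen after seeing the data, and no adjustment over all regions was made for it. The Treg-enriched call at a difference of 4 libraries held 4 regions of the windows without KO Treg replicate 2, or 8.16%, against 6.21% of all regions.

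The opposite pattern in this window was found at one weak region, from 9723082 to 9723502. It had a peak in KO Treg replicate 1 and WT Treg replicate 2, and in all 6 Tconv libraries, at percentiles of 4.19 to 15.8 in Treg and 2.16 to 19.5 in Tconv. Without KO Treg replicate 2 its difference of 4 libraries met the count for Tconv enrichment (1 of 49 regions, or 2.04%, against 6.40% of all regions). Fisher's exact p was 0.0606 and could not pass the threshold.

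**Figure D2:**
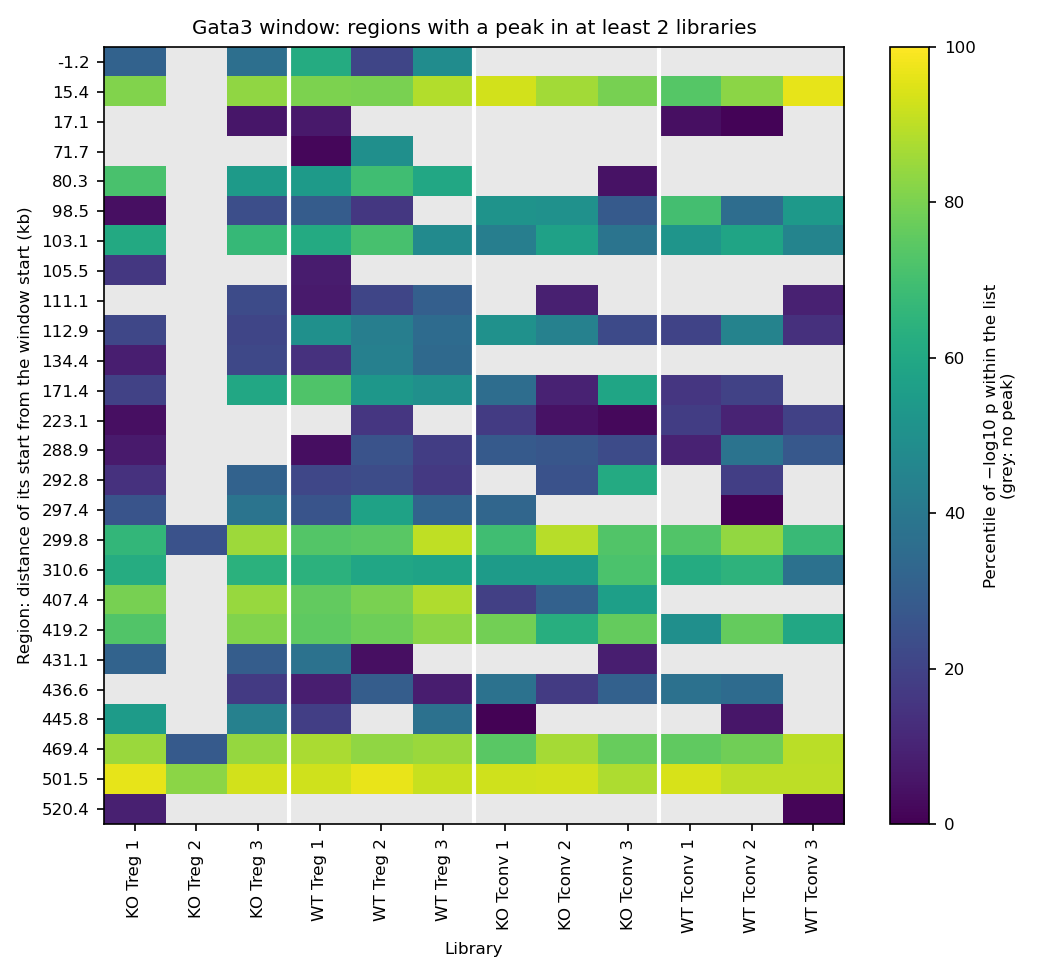
Percentile of the authors' −log10 p within each list (colour; grey, no peak) for the 26 regions of the Gata3 window with a peak in at least 2 libraries, in order along the window, in 12 libraries. The regions at −1.2 and 134.4 kb, both Treg-enriched, are among those grey in all 6 Tconv columns, and the region at 407.4 kb is grey in the 3 WT Tconv libraries and in KO Treg replicate 2.

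At 1 region of the Gata3 window the genotypes differed within Tconv. The region from 9907428 to 9908195 had a peak in all 3 KO Tconv libraries, at percentiles of 18.8, 31.1 and 56.3, and in no WT Tconv library. It was among the stronger peaks of the Treg lists of both genotypes, at 79.3 and 84.4 in KO Treg replicates 1 and 3 and at 76.1, 79.8 and 88.1 in the WT Treg libraries. The fold given by the authors' peak caller ranged from 4.90 to 10.5. It was the one region of the 49 gained in KO Tconv (2.04%, against 0.793% of all regions), and 3 against 3 libraries cannot give a p below 0.1. The call was absent among stricter peaks (−log10 q of at least 5) and under a rule of 50% coverage of the region, and it was present with equal numbers of top peaks. Whether the genotype difference itself differed between Tconv and Treg was not tested.

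The highest-ranked region of the Gata3 window, from 10001480 to 10002617, was open in all 12 libraries. Its fold was 7.87, 6.69 and 6.84 in KO Treg, 7.33, 8.02 and 7.41 in WT Treg, 7.08, 6.42 and 5.87 in KO Tconv and 7.42, 6.77 and 6.84 in WT Tconv. The other regions with a peak in all 12 libraries ran from 9799805 to 9801520 and from 9969405 to 9970967. Another, from 9515416 to 9516097, was open in every library but KO Treg replicate 2.

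The Maf window, on chromosome 8 from 118100000 to 118400000, had a single region open in Tconv. The KO Treg libraries were open at 4, 1 and 3 of its 5 regions and the WT Treg libraries at 2 each, against 1 each in the KO Tconv and WT Tconv libraries. Apart from KO Treg replicate 2, which was open at 1, every Treg library was above every Tconv library, as in 8.42% of 5002 stretches of 300 kb without that library. These stretches were chosen and counted as for Gata3, without regions open in 1 library alone. They too were not matched to the window in their number of regions. The Treg minus Tconv difference was 1.33 regions with 12 libraries (exact permutation p = 0.02) and 1.60 without KO Treg replicate 2 (exact permutation p = 0.005). It was the one of 12 window tests, over 6 genes and both contrasts, under 0.05, with no adjustment over these windows. The call was lost with stricter peaks (0.833 regions, exact permutation p = 0.2), with 5262 top peaks per list (0.50 regions, exact permutation p = 0.1), with 21269 top peaks per list and KO Treg replicate 2 left out (1.0 region, exact permutation p = 0.05), with base pairs in place of regions (exact permutation p = 0.095) and with libraries paired by number (exact permutation p = 0.0625).

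The shared Maf region, from 118229866 to 118232253, was 2388 bp wide and open in all 12 libraries. Its fold was 5.21, 5.80 and 5.52 in KO Treg, 6.0, 5.03 and 5.64 in WT Treg, 6.27, 5.47 and 5.61 in KO Tconv and 5.48, 5.73 and 5.2 in WT Tconv, and the groups overlapped. A second region, from 118250395 to 118251045, had a peak in KO Treg replicate 3 and in all 3 WT Treg libraries and in 0 of 6 Tconv libraries. Its percentiles were low, at 29.1 in KO Treg replicate 3 and 14.2, 10.8 and 22.7 in WT Treg. Fisher's exact adjusted p was 0.0369 without KO Treg replicate 2, in the test chosen after seeing the data. With 12 libraries the region's 4 libraries could not pass the threshold (Fisher's exact p = 0.0606). A region from 118142027 to 118142532 had a peak in KO Treg replicates 1 and 3 alone, at percentiles of 10.2 and 45.5. Without KO Treg replicate 2 it met the count for a gain in KO Treg, as 1 of 49 regions (2.04%, against 1.08% of all regions). The remaining 2 regions had a peak in KO Treg replicate 1 alone.

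**Figure D3:**
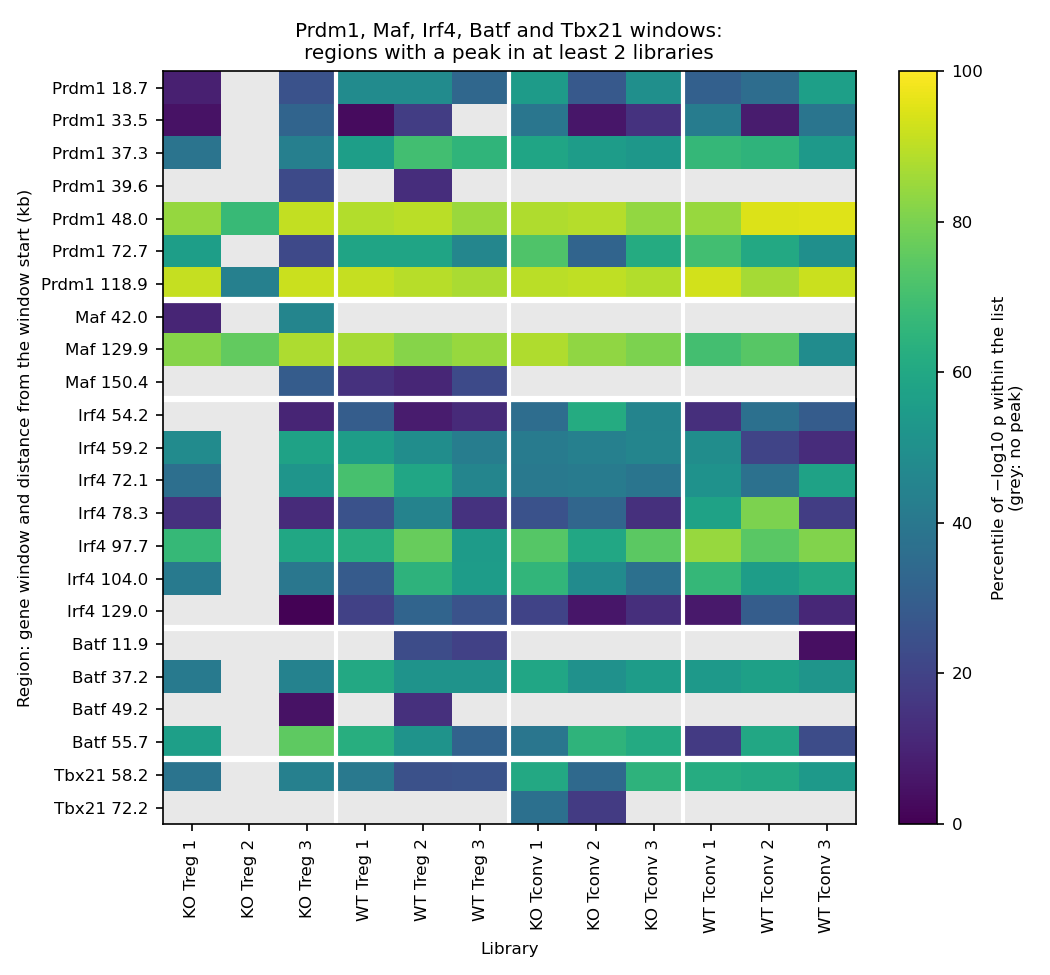
Percentile of the authors' −log10 p within each list (colour; grey, no peak) for the 23 regions of the Prdm1, Maf, Irf4, Batf and Tbx21 windows with a peak in at least 2 libraries, in 12 libraries. In the Maf window the region at 150.4 kb is grey in the 6 Tconv columns, and in the Tbx21 window the region at 72.2 kb is coloured in KO Tconv replicates 1 and 2 alone.

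The Prdm1 window, on chromosome 10 from 44130000 to 44350000, held no region called between the cell types. The KO Treg libraries were open at 6, 2 and 7 of its 8 regions and the WT Treg libraries at 6, 8 and 5, against 6 in each of the 6 Tconv libraries. The Treg minus Tconv difference was −0.333 regions (exact permutation p = 0.88) and 0.40 without KO Treg replicate 2 (exact permutation p = 0.56). The highest-ranked region, from 44248890 to 44249834, had percentiles of 91.3, 43.7 and 92.0 in KO Treg, 91.1, 89.4 and 87.3 in WT Treg, 89.6, 90.4 and 88.4 in KO Tconv and 93.2, 86.4 and 92.0 in WT Tconv. The region from 44178014 to 44179074 was also open in all 12 libraries, at percentiles of 67.5 to 90.7 in Treg and 83.9 to 95.1 in Tconv. The lowest value at each of these regions was that of KO Treg replicate 2. A region from 44169603 to 44170002 had a peak in KO Treg replicate 3 and WT Treg replicate 2 alone.

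The Irf4 window, on chromosome 13 from 30780000 to 30920000, held 7 callable regions, and all 7 were open in every WT Treg, KO Tconv and WT Tconv library. KO Treg replicates 1, 2 and 3 were open at 5, 0 and 7 of the 10 regions and the WT Treg libraries at 7 each, against 7, 8 and 8 in KO Tconv and 7, 8 and 7 in WT Tconv. The Treg minus Tconv difference of −2.0 regions did not pass (exact permutation p = 0.1) and was −0.90 without KO Treg replicate 2. Per 10000 peaks of the list it was −0.926 with 12 libraries (exact permutation p = 0.015), where KO Treg replicate 2 holds 0. The highest-ranked region, from 30877659 to 30878640, had a fold of 7.52 and 6.45 in KO Treg replicates 1 and 3 and of 7.11, 8.11 and 6.64 in WT Treg. It was 6.91, 5.90 and 6.86 in KO Tconv and 7.26, 6.69 and 7.55 in WT Tconv, and the groups overlapped. The widest region, from 30839204 to 30841613, spanned 2410 bp at percentiles of 42.5 to 57.7 in Treg and 12.5 to 49.1 in Tconv.

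The Batf window, on chromosome 12 from 86990000 to 87080000, held 2 regions open in every library but KO Treg replicate 2. KO Treg replicates 1, 2 and 3 were open at 2, 0 and 5 of its 6 regions and the WT Treg libraries at 2, 4 and 3, against 2 each in KO Tconv and 2, 2 and 3 in WT Tconv. The Treg minus Tconv difference was 0.50 regions (exact permutation p = 0.73) and 1.03 without KO Treg replicate 2. The first of the shared regions ran from 87027158 to 87028244, at percentiles of 40.8 to 60.2 in Treg and 50.5 to 59.2 in Tconv. The other, the highest-ranked, ran from 87045681 to 87046999, at 31.5 to 75.4 in Treg and 17.2 to 65.2 in Tconv. A region from 87001897 to 87002157 had a peak in WT Treg replicates 2 and 3 and in WT Tconv replicate 3, and in no KO library.

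The Tbx21 window, on chromosome 11 from 96930000 to 97010000, held 1 shared region, from 96988210 to 96988776. Its percentiles were 38.4 and 43.4 in KO Treg replicates 1 and 3 and 40.3, 24.7 and 25.7 in WT Treg, against 60.3, 34.0 and 64.7 in KO Tconv and 62.0, 60.4 and 54.1 in WT Tconv. Its fold by the authors' peak caller was 5.83 and 6.08 in KO Treg replicates 1 and 3 and 5.85, 5.01 and 5.48 in WT Treg, against 7.17, 5.29 and 7.21 in KO Tconv and 7.52, 7.25 and 6.95 in WT Tconv. These values describe each list, and no test between lists was made on them. The second region, from 97002170 to 97002439, had a peak in KO Tconv replicates 1 and 2 alone. The Treg minus Tconv difference was −0.50 regions (exact permutation p = 0.3).

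**Figure D4:**
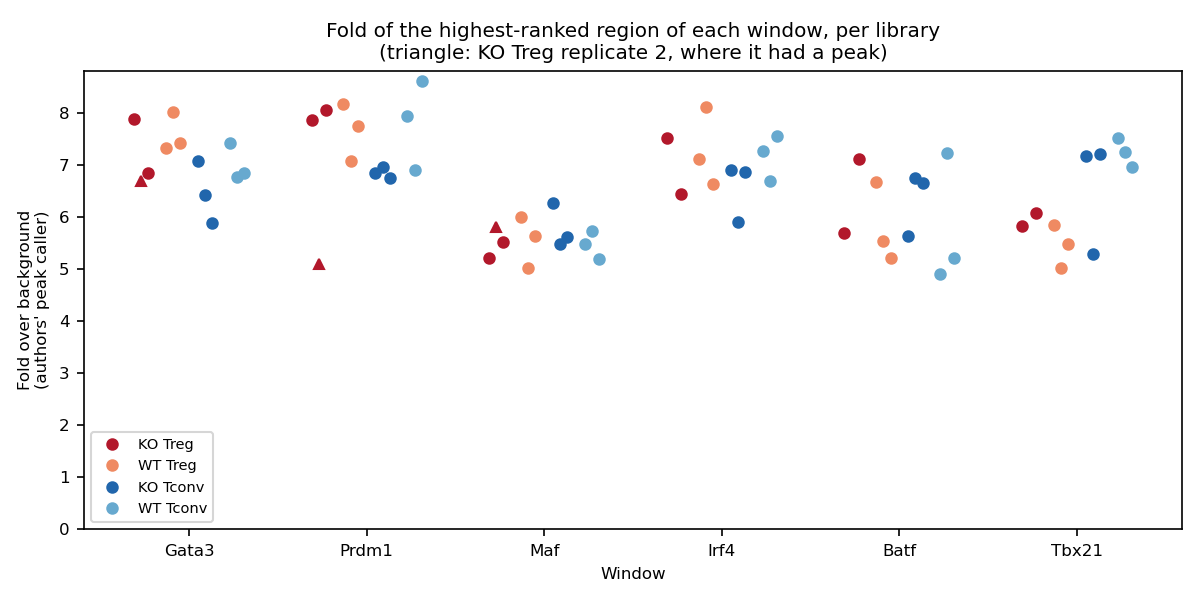
Fold over background given by the authors' peak caller (vertical axis, from 0) for the highest-ranked region of each window, 1 point per library with a peak, coloured by group. The values of the Maf region run from 5.03 to 6.27 and those of the Irf4 region from 5.90 to 8.11, with overlapping groups in both. In the Tbx21 region the WT Treg values, 5.01 to 5.85, lie below the WT Tconv values, 6.95 to 7.52, and the KO groups overlap. No test between lists was made on these values.

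Some regions were seen in one cell type alone. Of the 49, 8 had a peak in at least 2 Treg and no Tconv library (16.3%, against 11.5% of all regions), 4 of them in the Gata3 window, 2 in the Maf window and 1 each in the Prdm1 and Batf windows. In the other direction, 1 region had a peak in at least 2 Tconv and no Treg library (2.04%, against 9.22% of all regions), in the Tbx21 window. The Prdm1, Batf and Tbx21 regions had a peak in 2 libraries alone, as had some of the Gata3 and Maf regions. These counts describe windows that were chosen with earlier results of these data known.

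No difference between KO and WT in the number of open regions passed the test in any of the 6 windows. The KO minus WT differences over both cell types were −2.0 regions for Gata3, −0.667 for Prdm1, 0.333 for Maf, −1.33 for Irf4, −0.50 for Batf and 0.167 for Tbx21 (exact permutation p = 0.93, 0.7, 0.7, 0.41, 0.7 and 1, genotype permuted within cell type). Without KO Treg replicate 2 they were 0.733, 0.0333, 0.50, −0.167, −0.0667 and 0.40, in the same order, with exact permutation p from 0.2 to 1. In Treg alone and without that library, the Maf window was open at 3.5 ± 0.707 regions in KO (SD, n = 2) and at 2.0 in each WT library. The exact permutation p of 0.1 is the smallest that 2 against 3 libraries allow. Of the 4 regions open in KO Treg replicate 1, 2 had a peak in that library alone. Among single regions, none of the 49 was lost in KO Treg (0.973% of all regions were), gained in KO Treg (0.0305%) or lost in KO Tconv (0.189%), where a call needs 3 of 3 libraries against 0 of 3. With KO Treg replicate 2 left out, none was lost in KO Treg (0.977% of all regions were), the Maf region from 118142027 was gained in KO Treg (1.08%) and 1 was gained in KO Tconv (0.794%). Leaving out KO Treg replicate 3, 5 of 46 met the count for a loss in KO Treg (10.9%, against 3.11% of all regions), and without any other library at most 1. The KO Treg libraries left were then replicate 1 and replicate 2 with its 5262 peaks. A loss there needed no peak in either of these and a peak in all 3 WT Treg libraries. All 5 regions had a peak in KO Treg replicate 3. Fisher's exact test of 6 KO against 6 WT libraries gave no unadjusted p under 0.05 in the windows, and of the series' 5679 testable regions it called 0 after adjustment, with 22 at an unadjusted p under 0.05. Peak lists carry no read depth, and a region just under the calling limit of a −log10 p of about 5 reads as absent, so a weaker region and a closed one cannot be told apart.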

How the data were processed

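Peak lists of 12 libraries were analysed, grouped and numbered by the sample titles. MACS2, Bowtie2, DESeq2, DiffBind and Trim Galore 0.4.4 appear in the submitters' processing notes, without order or role, beside the build NCBIM37. How reads were filtered or shifted is not stated in those notes. For each peak the authors deposited a score, a fold ratio and the −log10 of p and of q. The −log10 values grow with a depth that is unknown.

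Peaks of all lists were merged, and regions with at least 1 bp in a window were kept; a library's value in a region is that of its peak with the highest −log10 p. Presence was compared over 32787 regions with two-sided Fisher's exact tests, with Benjamini-Hochberg adjustment over those able to reach 0.05, and open regions per window by exact permutation (400 labelings). The windows, members and lists were chosen with earlier results of these data known. Named by rule are the highest-ranked region of each window and every called region; other regions were picked after their values were seen. Alternatives were stricter peaks, equal peak numbers, 50% coverage, joining across 200 bp, other calls and measures, and leaving out each library. The code was tested on simulated data. Other differentiation factors and cell type markers were not analysed here. Python 3.11.15 was used, along with scipy 1.17.1, numpy 2.4.6, pandas 2.3.3 and matplotlib 3.10.9.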

Additional observations from a re-analysis of the deposited data

Results flagged for a closer look

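Of 10 sets of 6 libraries of 1 cell type in 1 window that varied, 4 held a library far from the others. The rule's rate by chance of about 1 in 20 does not hold for small counts with ties. There, a difference of 1 region is enough for a flag, as in the Tbx21 and Batf windows. All flags but that of the Batf window fell on the same library. In the Gata3 window, KO Treg replicate 2 was open at 3 regions against 19 to 25 in the other 5 Treg libraries. In the Irf4 window, KO Treg replicate 2 was open at 0 regions against 5 to 7. In the Tbx21 window, it was open at 0 regions against 1 in each of the others. This library has 5262 peaks in all, the fewest of the 12, and its part in these values was not tested beyond leaving it out. In the Batf window, WT Tconv replicate 3 was open at 3 regions against 2 in each of the other 5 Tconv libraries, a difference of 1 region.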

How the results depend on the processing

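Of 18 results and 358 alternatives, 301 kept their direction and side of the threshold or a count within 1.5 times, 37 counts moved, 5 tests lost and 4 gained the threshold, and 11 differences changed sign. The cause of these changes was not tested. Stricter peaks gave 0 gained in KO Tconv and a Maf cell type difference of 0.833. With 5262 top peaks per list, 0 regions were Treg-enriched, the Maf cell type difference was 0.50 and the Gata3 KO minus WT difference 0.50. With 21269 top peaks and KO Treg replicate 2 left out there were 4 Treg-enriched, 2 Tconv-enriched and 1 lost in KO Treg. The Treg minus Tconv difference was then 4.53 for Gata3 and 1.0 for Maf, and KO minus WT was 0.50 for Gata3 and 0.0667 for Prdm1. Coverage of 50% gave 1 Treg-enriched, 1 loss in KO Treg, and 1 loss and no gain (0) in KO Tconv. In base pairs, Treg minus Tconv was 700.7 for Maf and −75.5 for Batf, and KO minus WT was −40.7 for Maf. Per 10000 peaks, Treg minus Tconv was 1.92 for Gata3, 0.242 for Prdm1 and −0.926 for Irf4, and KO minus WT was 0.166 for Prdm1. The labels do not say whether same-numbered Treg and Tconv libraries of a genotype share an animal. Their deviations from the group means correlated at −0.0283 to 0.0608 over regions, against −0.0425 to 0.030 for pairs of unlike number. With 3 libraries per group these values cannot decide whether such libraries are paired. With a replicate block over the 6 pairs the Maf difference of 1.33 had an exact permutation p of 0.0625, and no other call changed. Requiring 6 against 0 gave 0 Treg-enriched, and a difference of 4 gave 4 Treg-enriched and 1 Tconv-enriched. With 2 of 3 libraries enough against 0 of 3, KO Treg had 2 losses and 1 gain and KO Tconv 1 loss and 2 gains. Fisher's test without KO Treg replicate 2, chosen after seeing the data, called 4 Treg-enriched. Leaving out each library gave 2 to 5 Treg-enriched, 0 to 1 Tconv-enriched, 0 to 5 losses (5 without KO Treg replicate 3) and 0 to 1 gains in KO Treg, and 0 to 1 losses and 1 to 2 gains (2 without KO Tconv replicate 3) in KO Tconv. With a library left out a difference of 4 libraries sufficed, and leaving out KO Treg replicate 2 or any Tconv library gave 4 or 5 Treg-enriched. Treg minus Tconv then ran from 2.57 to 6.97 for Gata3 and −0.80 to 0.40 for Prdm1, and KO minus WT from −3.67 to 0.733 for Gata3, −0.967 to 0.0333 for Prdm1 and −0.10 to 0.50 for Maf. The highest of each of these 5 differences was without KO Treg replicate 2, tied for Maf with leaving out any KO Tconv library.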
